A study of Danio rerio with 12 samples.

Results

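The genes described here are 10 regulators of the G1 phase of the cell cycle in zebrafish neuroblastoma, chosen by name from a table of 14581 genes. They comprise 4 inhibitors of cyclin-dependent kinases (cdkn1a, cdkn1ba, cdkn1bb and cdkn1c), 3 G1 cyclins (ccnd1, ccnd2a and ccne2), the kinases cdk4 and cdk6, and the retinoblastoma gene rb1. All 10 were in the table. Expression had been measured by RNA-seq in tumour cells of 2 transgenic models, with 4 libraries from MYCN fish and 8 from MYC fish. All 12 libraries came from EGFP+ cells (labelled as neuroblasts) that were sorted from mechanically dissociated tumours, followed by depletion of ribosomal RNA and paired sequencing. Strain, age, the promoter of each transgene and the number of fish behind a library are not given in the sources used here, so p-values measure the spread between these libraries, which may be technical in part. The comparison the labels allow is MYC against MYCN tumour cells.

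In G1, D-type cyclins bind and activate CDK4 and CDK6, and cyclin E activates CDK2. These kinases phosphorylate the retinoblastoma protein, which then releases E2F factors to switch on the genes of DNA replication. Proteins of the Cip/Kip family (encoded by CDKN1A, CDKN1B and CDKN1C in mammals) bind and restrain cyclin-CDK complexes. In mammalian cells MYC proteins are known to induce several G1 cyclins and CDKs and to repress Cip/Kip and other inhibitor genes, and in human neuroblastoma CCND1 is known for high expression. Zebrafish carry duplicated copies of several of these genes, marked a and b.

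Values are FPKM, fragments scaled by transcript length and library depth. They summed to between 567331 and 1058303 FPKM per library, and the depth in reads is unknown. Differences are given as MYC minus MYCN on the scale of log2(FPKM + 1), with the SE, and understate the ratios of genes near 0. A gene was tested if it reached 1 FPKM in 4 or more libraries, which held for 9606 genes, and "fell" or "rose" means an adjusted p under 0.05 in limma with Benjamini-Hochberg adjustment over all of them. Of the genes tested, 13.4% passed in either direction, 5.77% as higher and 7.63% as lower in MYC, and the median difference of all genes was -0.05. Of the 1287 genes called, 57.0% were lower; after rescaling to a common sum the share was 71.0% and the median of all genes -0.22, and cdkn1c and ccnd1 still fell. With the replicate block, which pairs MYCN 1 to 4 with MYC 1 to 4 and leaves out the other MYC libraries, 2261 genes were called. An exact 0 is given as listed at 0, because even eef1a1l1, which encodes a ubiquitous elongation factor, had a 0 in every library. The neuroblast label was met by a high sum of noradrenergic markers: 11 were measured, with a summed level of 5835 to 7773 FPKM in MYCN and 3524 to 5206 FPKM in MYC libraries. Most of each sum came from dbh and hand2. Of the 11, 4 fell: phox2bb, gata2a, hand2 and isl1. Levels of isl1 were 31.2 to 79.5 FPKM in MYCN and 0.730 to 14.5 FPKM in MYC. Those of phox2bb were 12.8 to 81.8 FPKM and 2.00 to 27.8 FPKM.

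Some libraries stood apart. In MYCN 1 and MYC 1 a list of 17 germ cell and meiosis genes, chosen after values were seen, summed to 243 and 354 FPKM, against 32.5 to 38.6 FPKM in the other MYCN libraries and 35.5 to 89.2 FPKM in the other MYC libraries. The synaptonemal complex gene sycp3, for example, stood at 25.6 and 34.0 FPKM in these libraries and at 0 to 3.86 FPKM in the rest. The 3.86 FPKM was that of MYC 2, and MYC 3 to 8 reached at most 0.972 FPKM. For hormad1, a meiosis gene, MYC 2 stood at 1.67 FPKM and MYC 3 to 8 at most at 0.571 FPKM. The listed gene tdrd9 went the other way. It was lowest in MYCN 1 (13.6 FPKM, others 19.5 to 24.4) and in MYC 1 (7.53 FPKM, others 15.9 to 56.9). In MYC 1 piwil2 (7.21 FPKM) lay within the other MYC libraries (1.76 to 17.5 FPKM). Both tdrd9 and piwil2 were highest among MYC libraries in MYC 7, the library with the sum of 89.2 FPKM. All other listed genes were highest in library 1 of both groups. Macrophage and leukocyte markers also differed: 10 of the 14 tested rose and none fell, where 5.77% of all genes tested rose and 7.63% fell. The 16 measured summed to 96.8 to 853 FPKM in MYCN and 431 to 1865 FPKM in MYC libraries. These sums overlapped. In MYCN 3, the highest MYCN library, cd74a (549 FPKM) and cd74b (148 FPKM) made up most of the sum. After values were seen, these genes were set aside. The other 14 markers then summed to 75.8 to 156 FPKM in MYCN and 275 to 646 FPKM in MYC libraries. The lack of overlap rests on that choice. None of those 16 was listed at 0 in all libraries of a group, and their part in the results below was not tested. Results are therefore also given without MYCN 1 and MYC 1, and in such sorted bulk samples fewer cells of a type and less RNA per cell cannot be told apart.

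Among the 9 members tested, cdkn1c and ccnd1 fell, none rose, and 7 did not pass. Over all genes tested, 7.63% fell and 5.77% rose. The remaining member, cdkn1bb, was under the filter in every library.

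The gene cdkn1c encodes p57, the Cip/Kip inhibitor that in mammals marks cells leaving the cycle during development and is an imprinted gene. In MYCN libraries 1 to 4 it stood at 15.2, 18.6, 6.53 and 38.6 FPKM. In MYC libraries 1 to 8 it was listed at 0.205, 0, 0.108, 0, 0.520, 0.230, 0 and 0.139 FPKM. The groups were far apart, with MYC 5 the highest MYC library at 0.520 FPKM and MYCN 3 the lowest MYCN library at 6.53 FPKM. The difference was -3.94 ± 0.33 (SE, adjusted p = 4.49e-06, limma), and the gene ranked 17 of the 9606 genes by p. It reached 1 FPKM in the 4 MYCN libraries alone, so it passed the filter only through the group in which it was high. An exact two-sided permutation of the library labels gave p = 0.00202 (n = 4 and 8), the smallest value this design allows. The difference was -3.99 without MYCN 1 and MYC 1 (adjusted p = 0.000103).

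The other Cip/Kip genes did not pass. The gene cdkn1a encodes p21, which halts the cycle after DNA damage. It stood at 7.36, 1.54, 0.739 and 0.575 FPKM in MYCN 1 to 4. In MYC 1 to 8 it stood at 3.76, 5.51, 1.33, 1.93, 5.24, 13.9, 6.19 and 5.04 FPKM. MYCN 1 and MYCN 2 lay within the MYC range of 1.33 to 13.9 FPKM, and MYCN 3 and MYCN 4 lay below it. The difference was 0.997 ± 0.50 (SE, 95% interval -0.06 to 2.06, adjusted p = 0.203, limma). Without MYCN 1 it was 1.53 (adjusted p = 0.0539), and without MYCN 1 and MYC 1 it was 1.56 (adjusted p = 0.0664).

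The pair cdkn1ba and cdkn1bb are the zebrafish copies of the gene for p27, which binds cyclin E and CDK2 and is removed by the ubiquitin ligase subunit SKP2. Levels of cdkn1ba were 0.405 to 4.04 FPKM in MYCN (median 3.002) and 1.06 to 11.8 FPKM in MYC (median 3.76). The groups overlapped, and 3 of 8 MYC libraries exceeded all MYCN libraries. The difference was 0.61 ± 0.47 (95% interval -0.39 to 1.62, adjusted p = 0.429, limma). The other copy, cdkn1bb, stood at 0.0579 to 0.143 FPKM in MYCN and 0.0213 to 0.386 FPKM in MYC. At such levels no statement about its direction was possible. Fitted with no filter it gave 0.10 ± 0.09 (adjusted p = 0.542, limma).

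Because FPKM is scaled by length, the inhibitors can be set against each other. The summed FPKM of the 4 Cip/Kip genes ranged from 7.73 to 41.6 in MYCN and from 3.02 to 22.2 in MYC libraries, and the ranges overlapped. The share of cdkn1c did not overlap: it contributed 56.9% to 93.0% of the sum in MYCN libraries and 0% to 3.59% in MYC libraries. In MYC libraries cdkn1a contributed 29.3% to 85.2% and cdkn1ba 14.6% to 65.9%, so that these genes together made up nearly all of the Cip/Kip RNA there. In MYCN libraries their shares were 1.38% to 27.5% and 5.24% to 15.5%, so the share of cdkn1ba overlapped. Shares of a sum depend on each other, so these values describe the fall of cdkn1c in another way and were not tested.

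**Figure D1:**
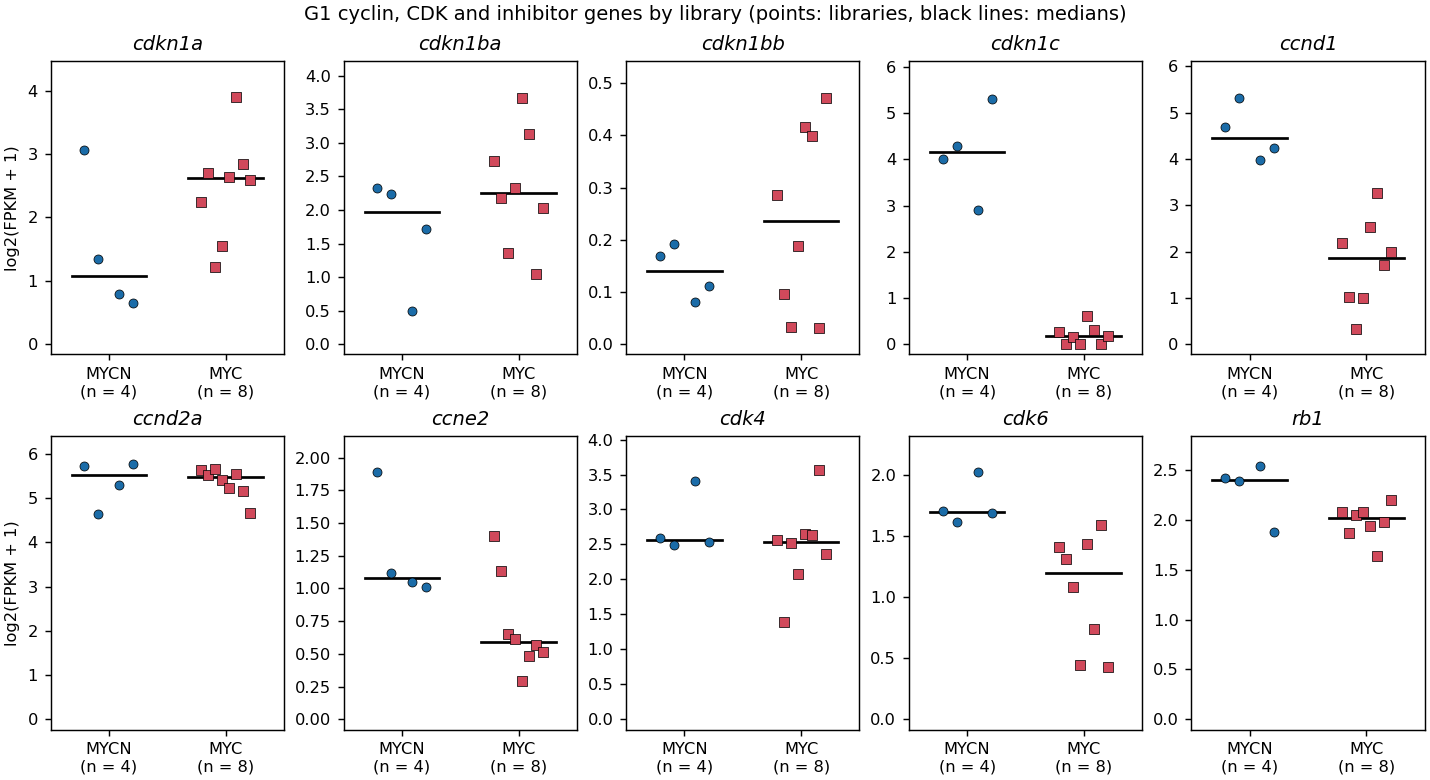
Each panel shows 1 gene, with log2(FPKM + 1) on the vertical axis (its scale differs between panels) for the 4 MYCN libraries (circles) and 8 MYC libraries (squares), in order of replicate number, and a line at the median. For cdkn1c, ccnd1 and cdk6 no MYC library reaches the lowest MYCN library, while the groups overlap for the other 7 genes. Of all genes tested, 5.6% were lower in MYC without overlap and 3.73% higher. The gene cdkn1c passed the filter only through the MYCN libraries, and cdk6 did not pass the test.

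Among the cyclins, ccnd1 fell and ccnd2a did not pass. The gene ccnd1 encodes cyclin D1, a partner of CDK4 and CDK6. It stood at 24.7, 38.6, 14.7 and 17.7 FPKM in MYCN 1 to 4. In MYC 1 to 8 it stood at 3.54, 1.03, 0.258, 1.01, 4.81, 8.66, 2.27 and 2.99 FPKM. All 8 MYC libraries were below all 4 MYCN libraries, with MYC 6 the highest of them. The mean went from 23.9 ± 10.6 FPKM (SD, n = 4) to 3.07 ± 2.71 FPKM (n = 8), which is 7.80 times lower. The difference was -2.79 ± 0.47 (adjusted p = 0.00168, limma), with an exact two-sided permutation p of 0.00202, and -2.81 without MYCN 1 and MYC 1 (adjusted p = 0.0104).

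The gene ccnd2a encodes a cyclin D2, another partner of CDK4 and CDK6. It stood at 51.9, 23.8, 38.3 and 53.2 FPKM in MYCN 1 to 4. In MYC 1 to 8 it stood at 48.8, 45.1, 49.7, 41.6, 36.5, 45.3, 34.7 and 24.2 FPKM. No MYC library lay outside the MYCN range. The difference was 0.00 ± 0.24 with a 95% interval of -0.52 to 0.52 (adjusted p = 0.997, limma), an interval that does not reach the difference of ccnd1.

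Consequently the make-up of D-type cyclin RNA differed between the models. Shares of a sum depend on each other, so those below describe the fall of ccnd1 in another way and were not tested. Over ccnd1, ccnd2a, ccnd2b and ccnd3, ccnd1 contributed 24.5% to 60.8% of the summed FPKM in MYCN libraries and 0.483% to 15.8% in MYC libraries. The share of ccnd2a was 37.5% to 73.7% in MYCN and 79.7% to 95.5% in MYC. The sum itself ranged from 54.2 to 81.9 FPKM in MYCN and from 28.2 to 61.3 FPKM in MYC, with overlap. In MYCN 2 alone ccnd1 exceeded ccnd2a. The genes ccnd2b and ccnd3 were minor, and ccnd2b made up 0.959% to 3.47% over both models. The share of ccnd3 reached 4.15% in MYCN 1 and 12.3% in MYC 1, the libraries with high germ cell and meiosis genes.

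**Figure D2:**
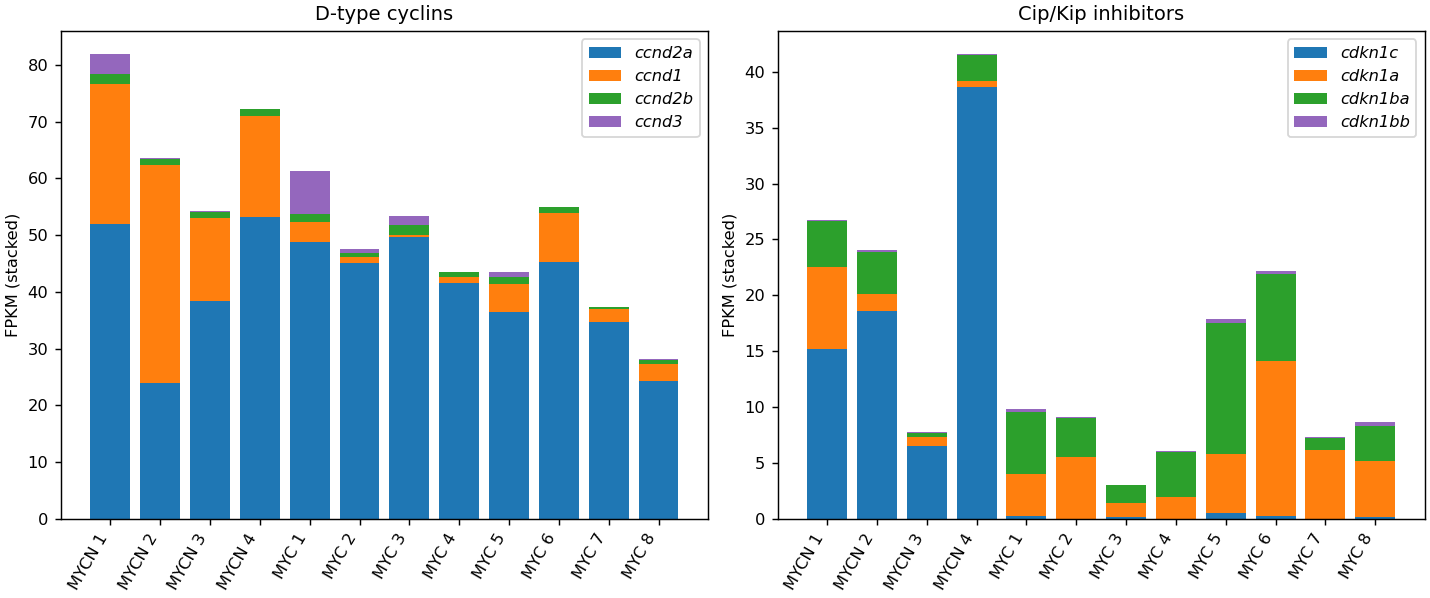
Stacked bars give the FPKM of each gene in each of the 12 libraries, for the D-type cyclins on the left and the Cip/Kip inhibitors on the right; the axes start at 0. The ccnd1 segment is 14.7 to 38.6 FPKM in MYCN and at most 8.66 FPKM in MYC libraries, and the cdkn1c segment is 6.53 to 38.6 FPKM in MYCN and at most 0.520 FPKM in MYC libraries.

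The gene ccne2 encodes a cyclin E, which activates CDK2 at the start of S phase. It stood at 2.70, 1.17, 1.06 and 1.02 FPKM in MYCN 1 to 4. In MYC 1 to 8 it stood at 1.64, 1.19, 0.572, 0.527, 0.228, 0.396, 0.482 and 0.429 FPKM. MYC 1 and MYC 2 lay within the MYCN range, and the other 6 lay below it. The difference was -0.56 ± 0.25 (95% interval -1.08 to -0.03, adjusted p = 0.150, limma). It was -0.35 without MYCN 1 (adjusted p = 0.420) and -0.45 without MYCN 1 and MYC 1 (adjusted p = 0.209). The related ccne1, no member, was far more abundant, at 15.8 to 48.5 FPKM in MYCN and 9.44 to 26.0 FPKM in MYC (-0.73 ± 0.31, adjusted p = 0.131). It made up 91.2% to 97.9% of cyclin E FPKM in MYCN and 91.1% to 99.1% in MYC libraries, so ccne2 was the minor cyclin E in both models.

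The kinases that partner the D-type cyclins were low and did not pass. The gene cdk4 stood at 5.02, 4.63, 9.60 and 4.79 FPKM in MYCN 1 to 4. In MYC it ranged from 1.62 to 10.9 FPKM with a median of 4.82 FPKM. The groups overlapped, with 3 MYC libraries below and 1 above all MYCN libraries (-0.29 ± 0.33, 95% interval -0.99 to 0.42, adjusted p = 0.620, limma). The gene cdk6 stood at 2.26, 2.07, 3.08 and 2.23 FPKM in MYCN 1 to 4. In MYC 1 to 8 it stood at 1.66, 1.48, 1.11, 0.360, 1.71, 0.672, 2.01 and 0.345 FPKM. All MYC libraries were below all MYCN libraries, but MYC 7 was only just below MYCN 2.

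For cdk6 the difference was -0.71 ± 0.25 (95% interval -1.25 to -0.16, adjusted p = 0.0820, limma), and the exact two-sided permutation p was 0.0162 without adjustment over the 9 members so tested. It passed when libraries were rescaled to a common sum (-0.86, adjusted p = 0.0301) and with library weights (-0.75, adjusted p = 0.0386), and in no other setting. Without MYCN 1 and MYC 1 the adjusted p was 0.128. Every MYC library was below every MYCN library for 3 members (cdkn1c, ccnd1 and cdk6), as for 5.6% of all genes tested, and above for none, against 3.73% of all genes.

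The gene rb1 encodes the retinoblastoma protein, the substrate through which the G1 kinases hold or release E2F factors. It stood at 4.36, 4.26, 4.82 and 2.69 FPKM in MYCN 1 to 4 and ranged from 2.11 to 3.59 FPKM in MYC (median 3.05). Only MYCN 4 lay within the MYC range. The difference was -0.33 ± 0.19 (95% interval -0.73 to 0.07, adjusted p = 0.274, limma), and -0.47 without MYCN 4 (adjusted p = 0.175).

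**Figure D3:**
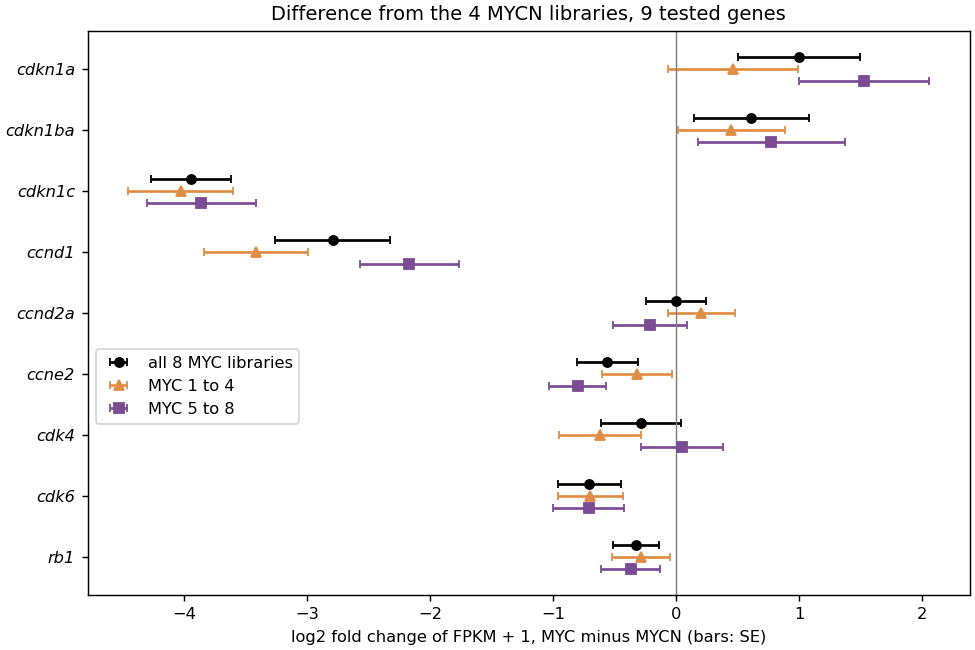
Points give the log2 fold change of FPKM + 1 (horizontal axis) for the 9 tested genes against the same 4 MYCN libraries, for all 8 MYC libraries, MYC 1 to 4 and MYC 5 to 8, with bars for the SE. The fold changes of cdkn1c (-3.94) and ccnd1 (-2.79) stand farthest from 0, and those of ccnd2a (0.00) and cdk4 (-0.29) nearest to it.

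By median level the order in MYCN libraries was ccnd2a (45.1 FPKM), ccnd1 (21.2), cdkn1c (16.9), cdk4 (4.90), rb1 (4.31), cdkn1ba (3.002), cdk6 (2.24), cdkn1a (1.14), ccne2 (1.11) and cdkn1bb (0.102). Neighbours in this order had overlapping ranges, except that ccne2 was above cdkn1bb in all 4 libraries with no overlap. In MYC libraries the order was ccnd2a (43.4 FPKM), cdkn1a (5.14), cdk4 (4.82), cdkn1ba (3.76), rb1 (3.05), ccnd1 (2.63), cdk6 (1.30), ccne2 (0.504), cdkn1bb (0.179) and cdkn1c (0.123). There the range of ccnd2a stood clear of the next gene and all other neighbours overlapped. Thus ccnd2a was the most abundant member in both models, and cdkn1c went from the third place to the last.

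The 8 MYC libraries were also taken as replicates 1 to 4 and 5 to 8, a split prompted by an earlier look at zeros in these data and given by no label as a batch. Genes listed at 0 throughout 1 such set and at 1 FPKM or more in all other libraries numbered 1 for MYC 1 to 4 and 0 for MYC 5 to 8. Both called members fell against each set, and these contrasts share the 4 MYCN libraries. The gene cdkn1c reached 1 FPKM in the 4 MYCN libraries alone, so it was tested only through the group in which it was high. For cdkn1c, MYC 1 to 4 differed from MYCN by -4.03 ± 0.43 (limma, adjusted p = 0.000513) and MYC 5 to 8 by -3.86 ± 0.44 (adjusted p = 0.00109). For ccnd1 the same differences were -3.41 ± 0.42 (adjusted p = 0.00116) and -2.17 ± 0.40 (adjusted p = 0.0118), and for cdkn1a, which passed against neither set, 0.47 and 1.53 (adjusted p = 0.658 and 0.108). Tested directly between the sets, no member passed, while 0.458% of all genes did (44 of 9606, with 0.104% higher and 0.354% lower in MYC 5 to 8, and 842 at an unadjusted p under 0.05). For ccnd1 the difference between MYC 5 to 8 (2.27 to 8.66 FPKM) and MYC 1 to 4 (0.258 to 3.54 FPKM) was 1.24 ± 0.44 (adjusted p = 0.367, limma, and 0.0171 unadjusted). For cdkn1a, with 5.04 to 13.9 FPKM in MYC 5 to 8 and 1.33 to 5.51 FPKM in MYC 1 to 4, it was 1.06 ± 0.40 (adjusted p = 0.420, and 0.0237 unadjusted). For ccne2 every library of MYC 5 to 8 (0.228 to 0.482 FPKM) was below every library of MYC 1 to 4 (0.527 to 1.64 FPKM), as held for 3.46% of all genes tested (-0.48 ± 0.24, adjusted p = 0.643). No member was higher in every library of MYC 5 to 8, against 2.31% of all genes.

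Beyond the members, 9 lists of cell cycle genes gave 124 symbols, of which 102 were measured and 90 tested. Of these 90, 8 fell, 2 rose and 80 did not pass, where 7.63% of all genes tested fell and 5.77% rose. Without MYCN 1 and MYC 1, 6 fell and 1 rose, with 7.75% of all genes called. With the replicate block 16 of the 90 pathway genes passed, beside 2261 of all 9606 genes tested. Of the 8 that fell, 6 were S phase genes, 1 a CDK inhibitor and 1 a gene of the damage response list. The inhibitor cdkn2c encodes p18, an INK4 protein that binds CDK4 and CDK6. It fell from 12.8 ± 4.05 to 4.35 ± 2.62 FPKM (-1.45 ± 0.34, adjusted p = 0.0121, limma), with an adjusted p of 0.0503 without MYCN 1, 0.0719 against MYC 1 to 4 alone and 0.0164 without MYCN 1 and MYC 1. The phosphatase gene cdkn3 stood at 12.1 and 14.4 FPKM (0.19 ± 0.24, adjusted p = 0.659), and cdkn1d was listed at 0 in all libraries.

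Of 12 S phase genes tested, 6 fell and 6 did not pass, with a median of -0.80. Over all genes tested, 7.63% fell and the median was -0.05. The summed FPKM of the 14 measured was 343 to 586 in MYCN and 143 to 264 in MYC libraries, with no overlap. That sum includes mcm3 to mcm7, which fell, and was not taken without them. For each of the 6 genes that did not pass, the groups overlapped. Of these, gmnn was higher in MYC (0.74, adjusted p = 0.0949, limma), and dhfr (-0.09) and prim1 (-0.09) were near 0. The genes pcna (-0.55), rrm1 (-0.73) and rrm2 (-0.61) were lower, and mcm2 was listed at 0 in all libraries. The helicase subunit gene mcm4 had the largest fall of the 12, from 83.3 ± 23.7 to 18.9 ± 6.03 FPKM (-2.11 ± 0.28, adjusted p = 0.000285, limma). Those that fell were mcm4 with its partner subunit genes mcm3, mcm5, mcm6 and mcm7, by 0.86 to 2.11 on the log2 scale, and tyms, the thymidylate synthase gene (-1.01 ± 0.31, adjusted p = 0.0469). The call of mcm7 (adjusted p = 0.0224) ended without MYCN 2, MYCN 3 or MYCN 4 (0.0598 to 0.0741), and against MYC 5 to 8 alone it was not made for mcm7 (0.101) or mcm6 (0.0639). That of tyms ended without MYCN 1, MYCN 3 or MYCN 4 (0.0758 to 0.152) and without MYC 2, MYC 4, MYC 5, MYC 6, MYC 7 or MYC 8 (0.0657 to 0.0754), and under 6 settings of pseudocount, filter, scaling or MYC set (0.0512 to 0.242). Without MYCN 1 and MYC 1 the adjusted p was 0.0638 for mcm6 and 0.0699 for tyms. None of the 11 G2 and mitosis genes tested passed, with a median of -0.43, and their sums overlapped (59.9 to 102 FPKM in MYCN and 23.2 to 174 FPKM in MYC). The members that passed therefore moved alongside lower RNA of mcm3 to mcm7 and tyms, not of every S phase gene tested. The part of that RNA in the fall of cdkn1c and ccnd1 was not tested.

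The list of damage response and cell cycle arrest genes, the setting in which cdkn1a is best known, had 21 tested genes. Of these, 2 rose, 1 fell and 18 did not pass, with a median of 0.45. Over all genes tested 5.77% rose and 7.63% fell, with a median of -0.05. The gene phlda3, which restrains AKT in mammals, rose from 2.00 ± 1.95 to 9.38 ± 7.40 FPKM (1.69 ± 0.52, adjusted p = 0.0438). Its call ended without MYCN 2, 3 or 4 or without MYC 2, 5, 6, 7 or 8 (0.0506 to 0.153) and under 5 settings of pseudocount, filter, scaling or MYC set (0.0507 to 0.205), and its difference was 1.05 with the replicate block (adjusted p = 0.127). Without MYCN 1 and MYC 1 phlda3 still rose (2.22, adjusted p = 0.0236, limma). The cyclin G2 gene ccng2, linked to cell cycle arrest in mammals, rose from 6.15 ± 0.770 to 14.0 ± 5.88 FPKM (0.99 ± 0.27, adjusted p = 0.0284), but not without any 1 of the 4 MYCN libraries (0.0543 to 0.0947) or after rescaling to a common sum (0.130), nor against MYC 5 to 8 alone (0.121) or without MYCN 1 and MYC 1 (0.0843). The gene ppm1db, which encodes a protein phosphatase, fell from 11.1 ± 1.14 to 5.74 ± 1.16 FPKM (-0.86 ± 0.19, adjusted p = 0.00914).

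In the other 5 lists no gene passed. These were 9 tested cyclins and CDKs (median -0.27), 7 pocket protein, E2F and DP genes (-0.29), 6 genes of the DREAM complex and its partners (-0.25), 16 of the SCF ligases and CDC25 phosphatases (-0.11) and 6 MYC partners (-0.13). The lowest p among the cyclins and CDKs was that of cdk2, the partner kinase of cyclin E, at 8.08 to 21.7 FPKM in MYCN and 3.99 to 15.8 FPKM in MYC (-0.96 ± 0.33, adjusted p = 0.0739). In MYC 1 it was at 15.8 FPKM against 3.99 to 7.86 FPKM in the other MYC libraries, and without MYC 1 it passed (adjusted p = 0.0164). It also passed with the replicate block (0.0208), though not without MYCN 1 and MYC 1 (0.0609). Of the E2F genes e2f3 stood at 24.1 and 12.2 FPKM (-0.91 ± 0.34, adjusted p = 0.0902, and 0.00858 with the replicate block, where it passed) and e2f6 at 48.8 and 67.4 FPKM (0.43 ± 0.20, adjusted p = 0.170). Of the DREAM partners mybl2b stood at 1.77 and 0.832 FPKM (adjusted p = 0.0884, and 0.0229 without MYC 1, where it passed) and the histone-binding rbbp4 at 70.4 and 52.2 FPKM (adjusted p = 0.228). The gene ambra1a, whose mammalian counterpart marks D-type cyclins for degradation, stood at 6.42 ± 0.935 and 3.80 ± 0.938 FPKM (-0.64 ± 0.21, adjusted p = 0.0527). It passed with the replicate block (adjusted p = 0.0291). The ubiquitin ligase scaffold gene cul4a stood at 37.2 and 24.0 FPKM (adjusted p = 0.122), with a call against MYC 5 to 8 alone (0.0244) and without MYC 3 (0.0407), and skp2 at 3.67 and 2.42 FPKM (adjusted p = 0.334). The dimerisation partner of MYC proteins, max, stood at 102 and 178 FPKM (0.72 ± 0.38, adjusted p = 0.242), and the MAX partner gene mxd3 at 9.10 and 6.97 FPKM (adjusted p = 0.492). Among G2 and mitosis genes ccnb3 (11.3 and 7.25 FPKM, adjusted p = 0.242) and mki67 (2.44 and 1.43 FPKM, adjusted p = 0.279) had the lowest p.

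**Figure D4:**
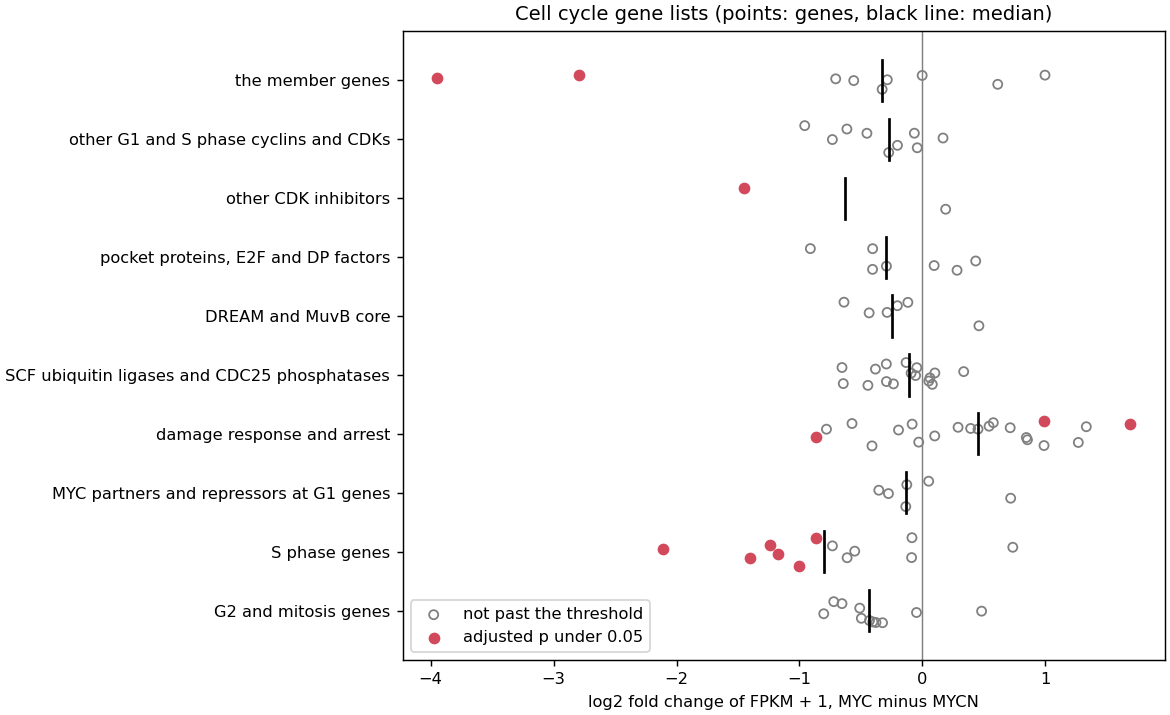
Each point is 1 tested gene, placed by its log2 fold change of FPKM + 1 (horizontal axis, MYC minus MYCN) within its list; filled points passed an adjusted p of 0.05 and black lines are list medians. The S phase genes hold 6 of the 8 pathway genes that fell, at -2.11 to -0.86, and the filled members are cdkn1c at -3.94 and ccnd1 at -2.79.

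Genes with the most similar pattern were sought for the called members by the mean absolute difference of centred log2(FPKM + 1) over the 12 libraries. For cdkn1c they were sox3 (0.27), a transcription factor of neural progenitors, pyya (0.29), a peptide YY gene, and tspan7 (0.38), a tetraspanin. The level of sox3 was 8.70 to 30.1 FPKM in MYCN and 0 to 1.28 FPKM in MYC, and that of tspan7 was 13.8 to 52.1 and 0.0452 to 0.875 FPKM. For ccnd1 the nearest were ompa (0.55), an olfactory marker protein gene, creb3l1 (0.58), a membrane-bound transcription factor, and ppp1r3ca (0.59), a glycogen-targeting subunit of protein phosphatase 1. The gene creb3l1 stood at 8.78 to 13.6 FPKM in MYCN and 0.469 to 1.83 FPKM in MYC. The 3 nearest genes lay farther from ccnd1 than those of cdkn1c did from it. This distance includes the difference between the groups, so genes near a called member share that difference by construction. In MYC libraries cdkn1c (at most 0.520 FPKM) and pyya (at most 0.752 FPKM) were near 0, with little room to differ. There ccnd1 reached 8.66 FPKM, so its distances cannot be compared with those of cdkn1c.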

How the data were processed

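The deposited table holds FPKM, scaled by the authors per length and depth; cutadapt, TopHat2 2.0.11 and Cufflinks 2.2.1 are named in the submitters' processing notes. The genome build, the annotation, strand handling and the treatment of reads shared by near-identical copies (such as cdkn1ba and cdkn1bb) are not given in the sources used here. Leaving out MYCN 1 and MYC 1, alone or with MYC 2, was chosen after seeing the data. So was summing the leukocyte markers without cd74a and cd74b. FPKM keeps no fragment counts, so depth is unknown and no counting interval was computed. Values were fitted as log2(FPKM + 1) in limma 3.58.1 (R 4.3.3) with a mean-variance trend, after simulated data had been used to test the script. The members and gene lists were chosen with earlier results of these data known. Named besides the members are called pathway genes, the 2 of lowest p in each list and the 3 nearest in pattern; skp2, cdkn1d and the germ cell genes were named after their values were seen. Other names than those used here matched 8 of the pathway genes. Among these were e2f3 (listed as zgc:158604), e2f6 (si:ch211-195d17.2), mybl2b (mybl2), rbbp4 (rbb4) and ambra1a (ambra1). Same-numbered MYCN and MYC 1 to 4 libraries deviated together across genes (correlations of 0.363, 0.471, 0.564 and 0.163, all over the limit of 0.1). Correlations between libraries of different numbers were not computed, so a pairing by number is not established. The main fit is unpaired, and the replicate block is given as an alternative. Alternatives covered the pseudocount, filter, scaling, library weights, replicate block and left-out libraries. Of 1 pathway list, a member's own result is not reported here.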

Additional observations from a re-analysis of the deposited data

Results flagged for a closer look

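In 6 of the 20 groups of member values 1 library stood far above the others of its group; the limit used is meant to flag about 1 group in 20 by chance when values are normally distributed, and its rate on these FPKM values was not measured. Among the inhibitors, cdkn1a was high in MYCN 1 (7.36 FPKM, the next 1.54) and in MYC 6 (13.9 FPKM, the next 6.19). The trace of cdkn1c in MYC 5 (0.520 FPKM, the next 0.230) was also far from the others, against 6.53 FPKM in the lowest MYCN library. The kinase gene cdk4 was high in MYCN 3 (9.60 FPKM, the next 5.02) and in MYC 7 (10.9 FPKM, the next 5.29). The cyclin gene ccne2 was high in MYCN 1 (2.70 FPKM, the next 1.17), the library with high germ cell and meiosis genes, and its value in MYC 1 (1.64 FPKM) was the highest of the MYC group.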

How the results depend on the processing

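The falls of cdkn1c and ccnd1 kept their direction and call in all 25 alternatives, at -6.33 to -2.10 and -3.41 to -1.84. Wherever a filter applied, cdkn1c was tested only through the MYCN libraries, the group in which it was high. The replicate block (-4.03 and -3.41) changed the call of no member. Genes called, 1287 in all (554 higher, 733 lower), became 1978 with library weights (929 higher), 2261 with the replicate block (984 higher, 1277 lower), 850 against MYC 5 to 8 (454 lower), 744 without MYCN 1 and MYC 1 (303 higher, 441 lower) and 618 without these and MYC 2 (249 higher, 369 lower); 369 were higher after rescaling to a common sum, and 451 lower against MYC 1 to 4. Leaving out 1 library gave 707 (without MYCN 4) to 1346 called, 289 to 628 higher and 418 to 723 lower. The 10 pathway calls became 17 with library weights, 16 with the block and 6 (without MYCN 4) to 15 with 1 library left out. Calls were gained by e2f3 in 6 alternatives and by cdk2 and ambra1a in 5 each. The difference of cdk6 passed after rescaling to a common sum (-0.859) and with library weights (-0.748). That of ccnd2a, near 0, turned positive with median-ratio scaling (0.0384), the block (0.206), MYC 1 to 4 alone (0.206), and without MYCN 1 and MYC 1 (0.0809) or these and MYC 2 (0.0449), and ranged from -0.242 to 0.134 with 1 library left out. Against MYC 5 to 8, cdk4 (0.0485) and cdkn3 (-0.00521) changed sign. Between the MYC sets, where none passed, quantile normalisation turned cdk6 (0.173) and rb1 (0.0125); 1 library left out gave cdkn1ba -0.0770 to 0.801, cdk6 -0.218 to 0.195 and rb1 -0.168 to 0.0187. The cause of these shifts was not tested. Between the MYC sets no paired analysis was possible because they share no replicate number. Under a filter of 5 FPKM, cdkn1ba, cdk6, rb1 and ccne2 were not tested. Depth is unknown, and levels near 0, such as cdkn1bb, limit what can be said.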

Other observations

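Several genes of the same pathway were high in library 1 of both models, a pattern seen after the values were examined. The cyclin gene ccnd3 was at 3.40 FPKM in MYCN 1, against 0.0608 to 0.145 FPKM in MYCN 2 to 4, and at 7.52 FPKM in MYC 1, against 0 to 1.59 FPKM elsewhere in that model. The factor e2f5, which works with the pocket proteins, stood at 3.21 FPKM in MYCN 1 against at most 0.0372 FPKM in MYCN 2 to 4, and at 3.97 FPKM in MYC 1 against at most 1.09 FPKM. The CDK-binding gene cks2 reached 29.1 FPKM in MYCN 1 and 75.5 FPKM in MYC 1, compared with 3.19 to 3.57 FPKM and 1.40 to 9.78 FPKM in the rest. Among all genes measured, 404 stood far above the other libraries of their group in both MYCN 1 and MYC 1. The same count was 0, 15 and 7 for replicates 2, 3 and 4, and 1 to 41 (median 8) over the 28 pairs of MYCN and MYC libraries with different numbers. Meiosis genes were among the 404: hormad1 stood at 17.9 and 18.2 FPKM in these libraries and at most at 1.67 FPKM elsewhere, and the germ line gene piwil1 at 10.5 and 7.67 FPKM, and at most at 0.613 FPKM elsewhere.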
